A study of Mus musculus with 180 samples.

Results

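The genes described here encode 9 receptors by which blood stem and progenitor cells reach and hold on to the bone marrow niche: Cxcr4, Itga4, Itga6, Itgb1, Itgb2, Itgal, Selplg, Cd44 and Robo4. They were listed by name for their known roles in homing and adhesion. No value entered the rule, but the list was drawn up with earlier results of these data known. Of the 14825 genes in the deposited single-cell table, these are 9, all 9 were listed, and all 9 were among the 10856 genes that passed the filter on low values, which kept a gene if some population had 10% or more of its cells at or above a TPM of 1. TPM is a level scaled by transcript length and by the total of the cell.

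The study asked how multipotent progenitors (MPP) that were made to express the transcription factor Hoxb5 differ from natural stem and progenitor cells of C57BL/6 mice. The CD11b+CD48+SK population, named CD48+Mac1+SK in the labels, comprised 47 Sca1+c-kit+ (SK) cells that carried CD11b and CD48. They were donor-derived (GFP+) and were sorted from irradiated primary recipients at Week 8 post-transplantation of MPP from Mx1cre/Rosa LSL-Hoxb5-EGFP/+ mice, in which pIpC induced Cre from the Mx1 promoter and so removed the stop before Hoxb5 and EGFP. The natural populations carried the same Rosa LSL-Hoxb5-EGFP/+ allele with no Cre: 41 WT-MPP cells (Lin-CD48-Sca1+c-kit+CD150-CD135+, with CD11b among the lineage markers that were gated out) and 36 bone marrow haematopoietic stem cells (BM HSC), both from 8-week-old mice, and 56 fetal liver stem cells (FL HSC, Lin-Sca1+c-kit+Mac1+CD150+) of Day14.5 embryos. The CD11b+CD48+SK cells thus differed from the others in Hoxb5, Cre, pIpC, transplantation and gate at once, and these cannot be told apart here. FL HSC differed from the marrow populations in organ and age, and from WT-MPP in gate as well. The sort gate of BM HSC is not given in the sources used here. Transplanted MPP without induced Hoxb5 were not analysed here. No animal was named for any cell, so each population was 1 sample, no difference between populations was tested, and all values below describe these cells.

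Homing starts when circulating cells roll on selectins of the vessel wall. Chemokine signals then switch integrins, receptors made of an alpha and a beta chain, into a form that binds the wall and the matrix tightly. Cxcr4 binds Cxcl12, the chemokine that draws stem cells into the marrow and keeps them there. Itga4 pairs with Itgb1 as VLA-4, which binds Vcam1 and fibronectin, and Itga6 pairs with Itgb1 as VLA-6, a laminin receptor. Itgal pairs with Itgb2 as LFA-1, a leukocyte receptor for intercellular adhesion molecules. Selplg (PSGL-1) is the main selectin ligand of leukocytes, Cd44 binds hyaluronan, and Robo4 is a guidance receptor of endothelium and of stem cells. Each is a protein-coding gene of the mouse genome (GRCm38): Cxcr4 at chr1:128588199-128592293, Itga4 at chr2:79255426-79333123, Itga6 at chr2:71745616-71858416, Itgb1 at chr8:128685654-128733200, Itgb2 at chr10:77530252-77565708, Itgal at chr7:127296260-127335138, Selplg at chr5:113818536-113832644, Cd44 at chr2:102811141-102901665 and Robo4 at chr9:37401897-37415115.

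The sorted labels were set beside their own transcripts. Hoxb5 reached a TPM of 1 in 91.5% of CD11b+CD48+SK cells, 57.1% of FL HSC, 22.2% of BM HSC and 17.1% of WT-MPP. Cd48 was present in 100% of CD11b+CD48+SK cells and in 2.78% to 17.9% of the other populations, and Slamf1 (CD150) was present in 63.9% of BM HSC and 55.4% of FL HSC against 7.32% of WT-MPP. TPM keeps no count of reads, so the depth of a cell is unknown and a value of 0 does not show that a transcript was absent. Of 6 genes that every cell uses, Actb, B2m, Eef1a1, Rplp0 and Tmsb4x were found in all 180 cells, and Gapdh was listed at 0 in 1 cell. In its place, the number of genes that reached a TPM of 1 in a cell is used, and its median was 5206.5 in FL HSC, 4514 in CD11b+CD48+SK cells, 4441.5 in BM HSC and 3844 in WT-MPP. The GEO labels give bone marrow as the source of the FL HSC too, and the summed erythroid markers had a median of 2406 TPM in FL HSC against 39.5 TPM in BM HSC and 0 TPM in both other populations.

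Among the 9 receptors, Itgal, the alpha chain of LFA-1, and Itgb2, its beta chain, differed most between populations in mean log2(TPM+1). Itgal was present, that is at or above a TPM of 1, in 66.0% of CD11b+CD48+SK cells and in at most 4.88% of any other population. Itgb2 was present in about equal shares of CD11b+CD48+SK cells (48.9%) and FL HSC (57.1%), the populations sorted for CD11b, and in under 10% of WT-MPP and BM HSC. Robo4 and Itga4 were present most often in FL HSC, Itga6 most often in BM HSC, and Selplg in nearly every cell of all populations. Shares are given below with their 95% exact Clopper-Pearson intervals, which cover the counting of cells only.

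**Figure D1:**
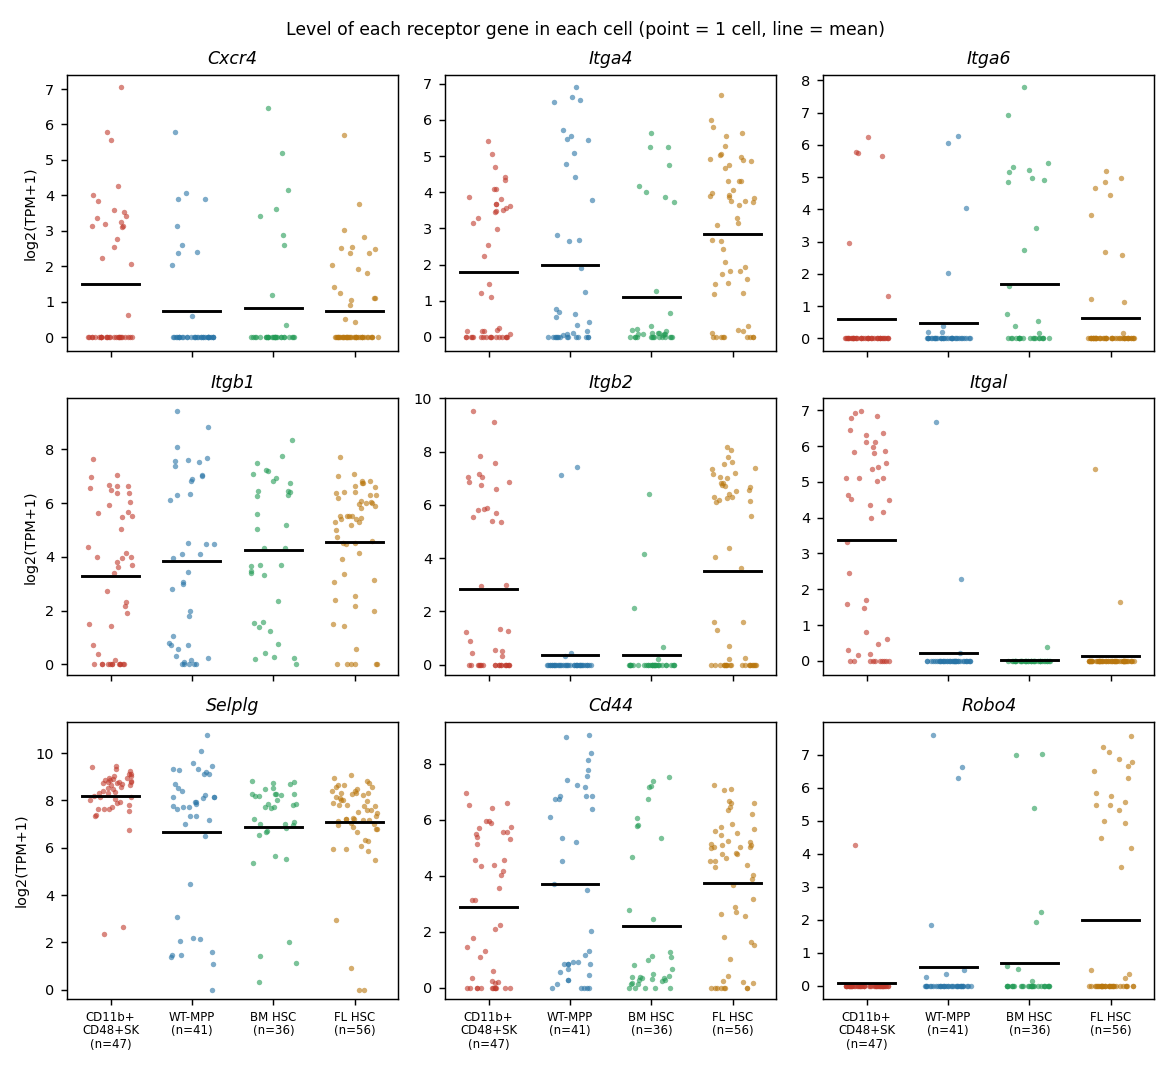
Each point is the level of a receptor gene in 1 cell, on the log2(TPM+1) scale of the vertical axis, with the 4 populations along the horizontal axis and a line at each mean. Itgal stands off 0 in most CD11b+CD48+SK cells (mean 3.37) and lies at or near 0 in the other populations (means 0.01 to 0.22), and Selplg is high in nearly all cells.

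Cxcr4 transcripts were found in a minority of the cells of each population. Over the CD11b+CD48+SK cells, Cxcr4 ranged from 0 to 132 TPM with a median of 0 and a mean of 8.05 TPM. Its highest value was 53.8 TPM in WT-MPP (mean 2.98), 86.7 TPM in BM HSC (mean 4.80) and 51 TPM in FL HSC (mean 2.07), with a median of 0 in each. Cells with Cxcr4 made up 40.4% (26.4 to 55.7) of CD11b+CD48+SK cells, 22.2% (10.1 to 39.2) of BM HSC, 22% (10.6 to 37.6) of WT-MPP and 30.4% (18.8 to 44.1) of FL HSC. At this threshold all 4 intervals overlapped, and the ranges over cells did too. From 5 TPM, Cxcr4 was found in 34% of CD11b+CD48+SK cells (16 of 47), 19.4% of BM HSC, 14.6% of WT-MPP and 7.14% of FL HSC (4 of 56), so FL HSC moved from the second highest share to the lowest. The mean log2(TPM+1) of Cxcr4 was higher in CD11b+CD48+SK cells by 0.75 than in WT-MPP, by 0.67 than in BM HSC and by 0.77 than in FL HSC, each below the difference of 1 used for counting here. These 3 differences depended on the scale. They were 1.34, 1.26 and 1.10 with a pseudocount of 0.1, all past 1, 0.27, 0.21 and 0.32 with a pseudocount of 10, and 1.18, 0.64 and 1.56 by the log2 of the mean TPM. The number of genes per cell moved with Cxcr4 in the CD11b+CD48+SK population. There the cells with Cxcr4 had a median of 5189 genes and those without it 4230.5, and Pearson's r between the Cxcr4 level and the number of genes was 0.56 over 47 cells. Among cells with 4000 to 5000 genes, Cxcr4 was present in 25% of CD11b+CD48+SK cells and 23.5% of WT-MPP, and the difference between them was 0.06. Against the stem cells the Cxcr4 difference in such cells was 0.38 from BM HSC, where 17.6% carried it, and 0.61 from FL HSC, where 19% did. The part of depth in the Cxcr4 values was not tested beyond this.

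Itga4, the alpha chain of VLA-4, was present most often in FL HSC. It had a median of 8.32 TPM there and a highest value of 103 TPM, and 43 of 56 FL HSC carried it, 76.8% (63.6 to 87.0). Its median was 1.13 TPM in CD11b+CD48+SK cells, with a highest value of 41.8 TPM and a share of 51.1% (36.1 to 65.9). In WT-MPP the median was 0.47 TPM, the highest value 119 TPM and the share 41.5% (26.3 to 57.9). BM HSC lay lowest, with a median of 0.058 TPM, a highest value of 49.1 TPM and a share of 25% (12.1 to 42.2). The interval of FL HSC lay above those of WT-MPP and BM HSC and overlapped that of CD11b+CD48+SK cells, and the other 3 intervals overlapped each other. This reading held for the threshold of 1 TPM. At any TPM above 0, Itga4 was found in 61.1% of BM HSC, 63.8% of CD11b+CD48+SK cells, 65.9% of WT-MPP and 83.9% of FL HSC, and at 5 TPM or more in 22.2%, 40.4%, 36.6% and 57.1%, so FL HSC had the highest share at each threshold while the distance to the others changed. WT-MPP with Itga4 carried it at a median of 32.8 TPM, against 11.1 TPM in the CD11b+CD48+SK cells that had it and 13.6 TPM in such FL HSC. The order of the populations depended on the measure, since the mean was 17 TPM in WT-MPP and 14.9 TPM in FL HSC, but the mean log2(TPM+1) was 2.0 and 2.85. The mean log2(TPM+1) of Itga4 in CD11b+CD48+SK cells minus that of FL HSC was -1.07, close to the size of 1 used for counting, and it fell short of it with cells scaled by the median ratio (-0.98), without the 10% of cells with the fewest genes (-0.95) and with a pseudocount of 10 (-0.44).

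Itgb1, the beta chain shared by VLA-4 and VLA-6, was found in most cells of every population. It ranged up to 201 TPM in CD11b+CD48+SK cells (median 12.1), 687 TPM in WT-MPP (median 14.7), 327 TPM in BM HSC (median 19.1) and 210 TPM in FL HSC (median 41.7). The share of cells with Itgb1 was 68.1% (52.9 to 80.9), 68.3% (51.9 to 81.9), 83.3% (67.2 to 93.6) and 87.5% (75.9 to 94.8) in the same order. The 4 intervals overlapped, and at any TPM above 0 the share was highest in BM HSC (97.2%), ahead of FL HSC (89.3%). For Itgb1, the mean log2(TPM+1) of CD11b+CD48+SK cells minus that of FL HSC was -1.24. It was -0.98 among cells with 4000 to 5000 genes and -0.47 by the log2 of the mean TPM, both short of 1 in size.

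Itga6, the alpha chain of VLA-6, had its highest share in BM HSC. In BM HSC it ranged from 0 to 221 TPM with a mean of 16.7 TPM, and 12 of 36 cells carried it, 33.3% (18.6 to 51). It was present in 12.8% (4.83 to 25.7) of CD11b+CD48+SK cells with a highest value of 74.5 TPM, in 9.76% (2.72 to 23.1) of WT-MPP with a highest value of 75.8 TPM, and in 17.9% (8.91 to 30.4) of FL HSC with a highest value of 35.9 TPM. The median was 0 in all 4 populations, and the intervals overlapped. The mean log2(TPM+1) of Itga6 in BM HSC was 1.67, above CD11b+CD48+SK cells by 1.09, WT-MPP by 1.21 and FL HSC by 1.04. With a pseudocount of 10 the mean of Itga6 in these populations minus that of BM HSC was -0.45, -0.51 and -0.48, all short of 1 in size.

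Itgb2, the beta chain of LFA-1 and also of Mac-1 (CD11b/CD18), separated CD11b+CD48+SK cells and FL HSC from the other populations. Over the CD11b+CD48+SK cells Itgb2 ranged from 0 to 736 TPM with a median of 0.84 TPM, and 23 of 47 cells carried it, 48.9% (34.1 to 63.9). In FL HSC it ranged from 0 to 290 TPM with a median of 13.5 TPM, and 32 of 56 cells carried it, 57.1% (43.2 to 70.3). It was present in 2 of 41 WT-MPP, 4.88% (0.596 to 16.5), and in 3 of 36 BM HSC, 8.33% (1.75 to 22.5). The first 2 intervals overlapped each other and neither reached the others. On the log2(TPM+1) scale the mean of Itgb2 in CD11b+CD48+SK cells lay above that of WT-MPP by 2.48 and that of BM HSC by 2.48, and FL HSC were above WT-MPP by 3.13 and above BM HSC by 3.13. Itgam, the CD11b chain that pairs with Itgb2, was itself present in 36.2% (22.7 to 51.5) of CD11b+CD48+SK cells, 16.1% (7.62 to 28.3) of FL HSC, 4.88% of WT-MPP and 2.78% of BM HSC. Both populations with Itgb2 had been sorted for CD11b and the WT-MPP sorted against it, so gate and population cannot be told apart for this chain.

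In mean log2(TPM+1), Itgal had the largest differences of the 9 receptors. Over the CD11b+CD48+SK cells Itgal ranged from 0 to 126 TPM with a median of 19.5 TPM, and 31 of 47 cells carried it, 66.0% (50.7 to 79.1). It was present in 2 of 41 WT-MPP, 4.88% (0.596 to 16.5), where 1 cell reached 101 TPM and 38 cells were at 0. In FL HSC it was present in 2 of 56 cells, 3.57% (0.435 to 12.3), with a highest value of 39.9 TPM. None of the 36 BM HSC reached a TPM of 1, for which the exact interval runs from 0 to 9.74%, and 35 of them were listed at 0. The interval of the CD11b+CD48+SK cells lay above those of all other populations, although 10 of these cells were at 0 as well. The mean log2(TPM+1) of Itgal was higher in CD11b+CD48+SK cells by 3.14 than in WT-MPP, by 3.36 than in BM HSC and by 3.24 than in FL HSC. Among cells with 4000 to 5000 genes these differences were 3.46, 3.48 and 3.48. The level of Itgal did not follow the number of genes in CD11b+CD48+SK cells (r = -0.03 over 47 cells).

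Marker genes of the myeloid, mast or basophil and T cell lineages were summed beside Itgal and Itgb2. At least 3 of the myeloid markers, of which 12 were in the table, were present in 44 of 47 CD11b+CD48+SK cells, 28 of 56 FL HSC, 8 of 36 BM HSC and 6 of 41 WT-MPP. The myeloid sum ran from 559 to 8357 TPM in CD11b+CD48+SK cells, from 190 to 4503 TPM in FL HSC, from 499 to 3915 TPM in BM HSC and from 18.2 to 4568 TPM in WT-MPP. Lyz2 led that sum in all populations, and Elane, Ltf, Camp and Csf1r were listed at 0 in every CD11b+CD48+SK cell. Mast or basophil markers, of which 5 were in the table, had a median sum of 144 TPM in CD11b+CD48+SK cells, with a range of 0 to 9248 TPM, and their sum was 100 TPM or more in 26 of 47 cells against 1 cell in each other population. Cpa3 had the highest mean of these markers in CD11b+CD48+SK cells, 742 TPM, and Cma1 was listed at 0 in every such cell. In a split chosen after the values were seen, the 21 CD11b+CD48+SK cells below 100 TPM were set beside the 40 WT-MPP below it. Mean log2(TPM+1) was higher in these CD11b+CD48+SK cells by 3.25 for Itgal and by 2.82 for Itgb2. T cell markers, of which 4 were in the table, had a median sum of 0.29 TPM and a highest sum of 424 TPM in CD11b+CD48+SK cells, and the natural populations had a median of 0 and highest sums of 292 TPM (WT-MPP), 155 TPM (BM HSC) and 197 TPM (FL HSC). Their sum was 100 TPM or more in 10 of 47 CD11b+CD48+SK cells, 5 of 56 FL HSC, 6 of 41 WT-MPP and 1 of 36 BM HSC. Lck led it in all populations, with means of 53.6, 27.3, 19.7 and 4.34 TPM in that order. No cell had 3 of these markers, and Cd3g was listed at 0 in every CD11b+CD48+SK cell. The part of the myeloid, mast or basophil and T cell markers in the Itgal and Itgb2 values was not tested.

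Selplg was the receptor with the highest level and was found in almost every cell. It ranged from 4.06 to 694 TPM in CD11b+CD48+SK cells (median 369), from 0 to 1747 TPM in WT-MPP (median 233), from 0.262 to 450 TPM in BM HSC (median 209) and from 0 to 537 TPM in FL HSC (median 186). It was present in 100% (92.5 to 100) of CD11b+CD48+SK cells, 94.6% of FL HSC, 97.2% of BM HSC and 97.6% of WT-MPP. Mean log2(TPM+1) of Selplg was higher in CD11b+CD48+SK cells by 1.54 than in WT-MPP, by 1.3 than in BM HSC and by 1.08 than in FL HSC. Selplg reached 5 TPM in 97.9% of CD11b+CD48+SK cells but in 78.0% of WT-MPP, and WT-MPP also held the cell with the highest value. By the log2 of the mean TPM, CD11b+CD48+SK cells were higher by 0.22 than WT-MPP, by 0.82 than BM HSC and by 0.78 than FL HSC, all short of 1. For the pair with WT-MPP, among cells with 4000 to 5000 genes the mean log2 level differed by 0.63.

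Cd44 was present in 78.6% (65.6 to 88.4) of FL HSC, 63.8% (48.5 to 77.3) of CD11b+CD48+SK cells, 58.5% (42.1 to 73.7) of the WT-MPP and 44.4% (27.9 to 61.9) of BM HSC. Its median and highest value were 23.1 and 149 TPM in FL HSC, 7.75 and 122 TPM in CD11b+CD48+SK cells, 10.2 and 523 TPM in WT-MPP, and 0.50 and 186 TPM in BM HSC. The intervals of FL HSC and BM HSC did not overlap at this threshold, and neighbours in the order did. At any TPM above 0 the order was lost, with Cd44 in 87.8% of the WT-MPP, 86.1% of BM HSC, 85.7% of FL HSC and 74.5% of CD11b+CD48+SK cells. Among cells with 4000 to 5000 genes, WT-MPP had the highest share with 76.5%, followed by FL HSC with 57.1%, CD11b+CD48+SK cells with 50% and BM HSC with 41.2%. WT-MPP that had Cd44 carried it at a median of 110 TPM, compared with 46.6 TPM in such BM HSC, 31.5 TPM in FL HSC and 28.4 TPM in CD11b+CD48+SK cells. Compared with BM HSC, the mean log2(TPM+1) of Cd44 was higher by 1.53 in WT-MPP and by 1.55 in FL HSC. By the log2 of the mean TPM these differences were 1.51 and 0.20, so the second fell short of 1. With a pseudocount of 10 they were 0.90 and 0.60, both short of 1. Among cells with 4000 to 5000 genes, WT-MPP were above CD11b+CD48+SK cells by 2.50, against 0.84 over all cells.

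Robo4 was present in 19 of 56 FL HSC, 33.9% (21.8 to 47.8), at up to 188 TPM. It was found in 5 of 36 BM HSC, 13.9% (4.67 to 29.5), at up to 128 TPM and in 4 of 41 WT-MPP, 9.76% (2.72 to 23.1), at up to 194 TPM. A single CD11b+CD48+SK cell had Robo4, at 18.4 TPM, which was 2.13% (0.0539 to 11.3), and the other 46 cells were listed at 0. The interval of FL HSC did not overlap that of CD11b+CD48+SK cells and overlapped those of the other populations. For Robo4, the mean log2(TPM+1) of CD11b+CD48+SK cells was lower than that of the others, with differences of -1.90 from FL HSC, -0.60 from BM HSC and -0.48 from WT-MPP. By the log2 of the mean TPM they were -4.18, -2.76 and -2.86, all past 1 in size. In cells with 4000 to 5000 genes Robo4 was found in 0% of BM HSC and of CD11b+CD48+SK cells, and the difference there was -2.08 from FL HSC, 0 from BM HSC and -0.93 from WT-MPP. Endothelial markers were counted beside Robo4, and at least 3 of the 7 were present in 22 of 56 FL HSC, 8 of 36 BM HSC, 2 of 41 WT-MPP and 0 of 47 CD11b+CD48+SK cells. Their sum ran from 0 to 940 TPM in FL HSC, 0 to 820 TPM in BM HSC, 0 to 3750 TPM in WT-MPP and 0 to 281 TPM in CD11b+CD48+SK cells. Lyve1 was listed at 0 in every FL HSC. The part of these markers in the Robo4 values was not tested.

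**Figure D2:**
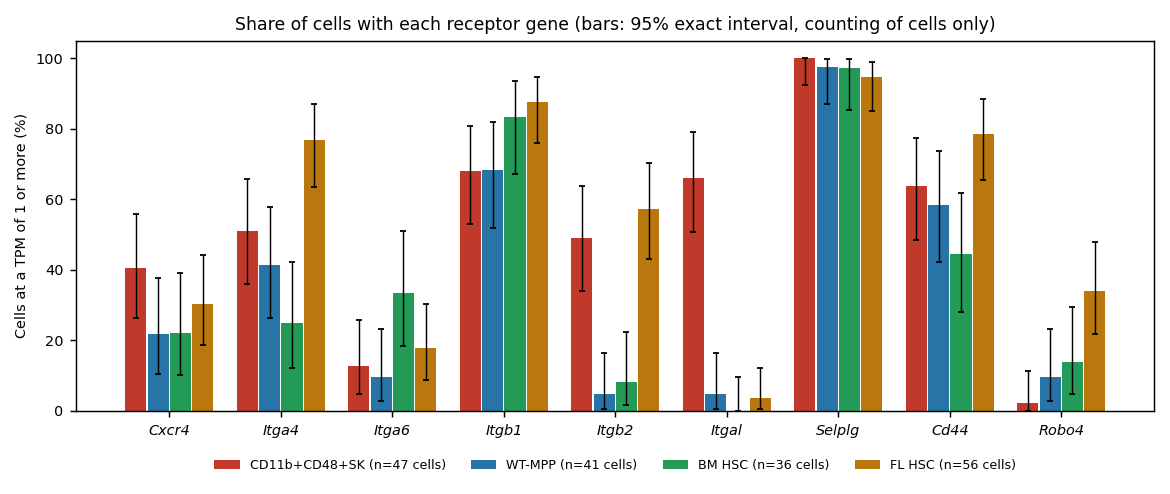
Bars give the percentage of cells of each population in which a receptor gene reached a TPM of 1, and lines give the 95% exact interval for the counting of cells. Itgal is at 66.0% in CD11b+CD48+SK cells and under 5% elsewhere, Itgb2 is at 48.9% in CD11b+CD48+SK cells and at 57.1% in FL HSC, and Selplg is above 94% throughout.

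Counted over the 9 receptors, CD11b+CD48+SK cells had 3 higher and 0 lower than WT-MPP by 1 or more in mean log2(TPM+1). The higher ones were Itgb2, Itgal and Selplg. Of all genes that passed the filter, 19% were higher and 5.01% lower by as much, and the median difference was 0.12 over the receptors and 0.21 over all genes. Against BM HSC, the same 3 receptors were higher and Itga6 was lower, where 13.4% of all genes were higher and 11.8% lower. The median difference there was 0.67 over the receptors and -0.001 over all genes. Against FL HSC, Itgal and Selplg were higher and Itga4, Itgb1 and Robo4 lower in CD11b+CD48+SK cells, of which only Itgal stayed past 1 under every alternative tried. For this pair 4.02% of all genes were higher and 20.9% lower, with a median of -0.65 over the receptors and -0.32 over all genes.

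FL HSC had 4 receptors higher than BM HSC (Itga4, Itgb2, Cd44 and Robo4) and 1 lower (Itga6). The shares of all genes were 25.6% higher and 5.44% lower, and the medians were 0.29 over the receptors and 0.31 over all genes. Itgb2 and Robo4 were higher in FL HSC than in WT-MPP and none was lower, beside 33.9% and 3.08% of all genes, with medians of 0.46 and 0.56. Between the natural marrow populations, Cd44 was higher and Itga6 lower in WT-MPP than in BM HSC, beside 2.67% and 14.49% of all genes, with medians of -0.08 and -0.22. The pairs share populations, so these counts are not independent of each other. The counts over the receptors are small beside shares of this size, and nothing is read from them about the receptors as a group.

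**Figure D3:**
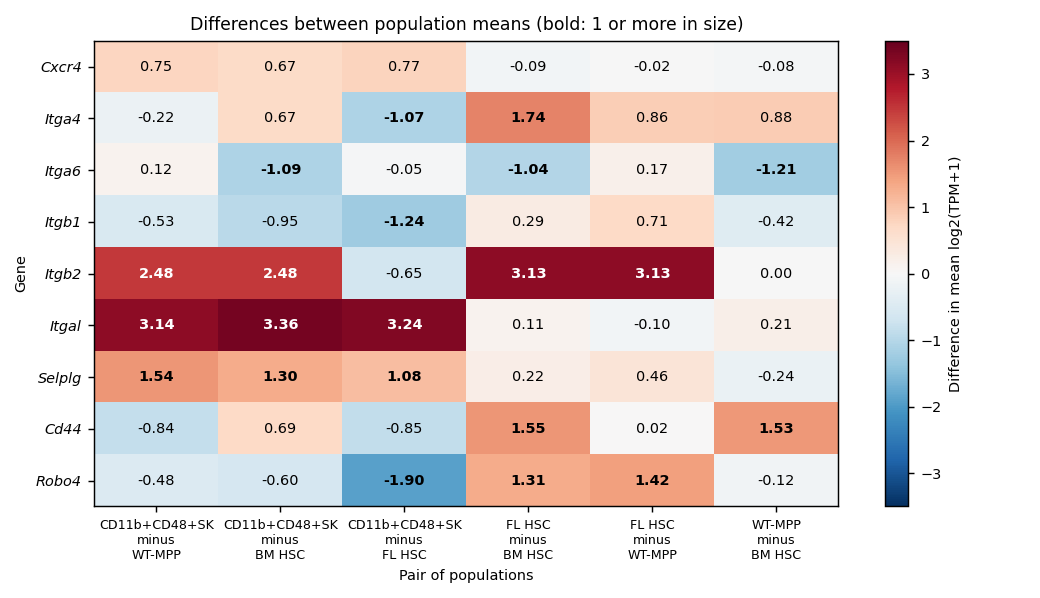
The colour and the number in each field give the difference in mean log2(TPM+1) of a receptor gene (vertical axis) between a pair of populations (horizontal axis), in bold where it is 1 or more in size. Itgal is higher in CD11b+CD48+SK cells against all 3 other populations (3.14 to 3.36), and Itgb2 is higher in both CD11b+CD48+SK cells and FL HSC against WT-MPP and BM HSC (2.48 to 3.13).

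Because an integrin needs both of its chains, the chains were counted together in single cells. Transcripts of both VLA-4 chains were found in 69.6% (55.9 to 81.2) of FL HSC, against 31.7% (18.1 to 48.1) of WT-MPP, 29.8% (17.3 to 44.9) of CD11b+CD48+SK cells and 25% (12.1 to 42.2) of BM HSC. The interval of FL HSC lay above the others, which overlapped, at this threshold. Counting any TPM above 0, both chains were found in 76.8% of FL HSC, 61.0% of the WT-MPP, 58.3% of BM HSC and 42.6% of CD11b+CD48+SK cells, and from 5 TPM in 42.9%, 26.8%, 19.4% and 21.3%. Among cells with 4000 to 5000 genes the shares were 66.7% in FL HSC and 52.9% in WT-MPP. In the CD11b+CD48+SK population Itga4 and Itgb1 each had a share above 50%, but 10 cells had Itga4 without Itgb1 and 18 had Itgb1 without Itga4. The VLA-6 chains were found together in 33.3% (18.6 to 51) of BM HSC, 17.9% of FL HSC, 8.51% of CD11b+CD48+SK cells and 7.32% of WT-MPP. All 12 BM HSC with Itga6 also had Itgb1 (73.5 to 100), as did 75% (53.3 to 90.2) of the BM HSC without it. All 10 FL HSC with Itga6 had Itgb1 too.

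The LFA-1 chains were found together in 12 of 47 CD11b+CD48+SK cells, 25.5% (13.9 to 40.3). In this population 19 cells had Itgal without Itgb2, 11 had Itgb2 without Itgal and 5 had neither. Itgb2 was present in 38.7% (21.9 to 57.8) of the cells with Itgal and in 68.8% (41.3 to 89.0) of those without it. These intervals overlapped, and the difference between the shares was not tested. Both chains were found in 2 of 56 FL HSC, 1 of 41 WT-MPP and 0 of 36 BM HSC (exact interval 0 to 9.74%). FL HSC had Itgb2 without Itgal in 30 of 56 cells. Counting any TPM above 0 as present raised the share of CD11b+CD48+SK cells with both LFA-1 chains to 48.9%, so the count of cells that hold both depended on the threshold. Itgam and Itgb2, the Mac-1 chains, were found together in 21.3% (10.7 to 35.7) of CD11b+CD48+SK cells, 8.93% (2.96 to 19.6) of FL HSC and in no WT-MPP or BM HSC.

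**Figure D4:**
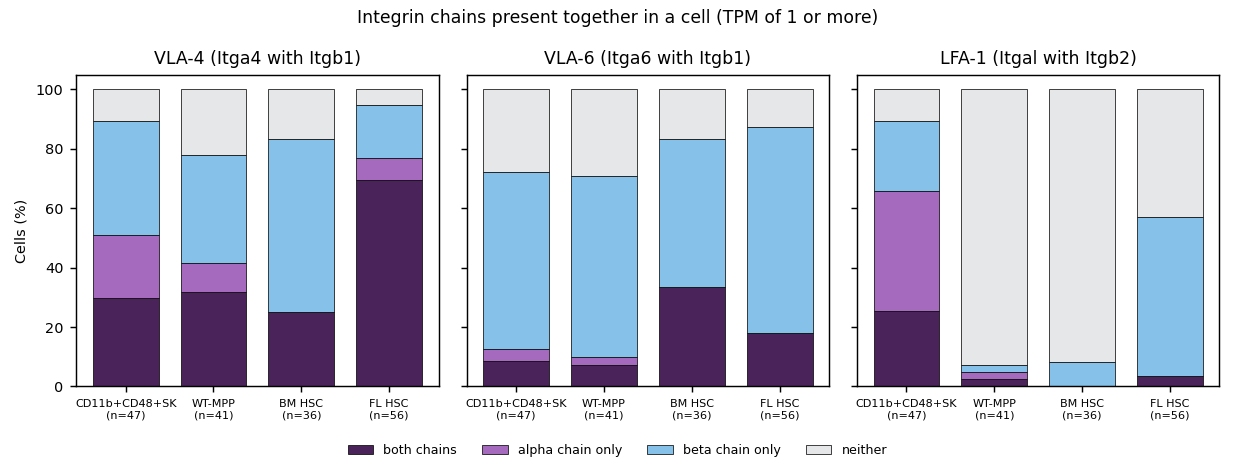
Stacked bars give the percentage of cells of each population (horizontal axis) with both chains of an integrin, the alpha chain only, the beta chain only or neither, each chain counted from a TPM of 1. Both VLA-4 chains are commonest in FL HSC (69.6%), both VLA-6 chains in BM HSC (33.3%) and both LFA-1 chains in CD11b+CD48+SK cells (25.5%).

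Over all 9 receptors, a cell held a median of 4 in CD11b+CD48+SK cells (2 to 7), 3 in WT-MPP (1 to 6), 3 in BM HSC (1 to 7) and 5 in FL HSC (2 to 7). Cells with 5 or more receptors made up 46.8% of CD11b+CD48+SK cells, 58.9% of FL HSC, 19.4% of BM HSC and 19.5% of WT-MPP. The number of receptors in a cell followed its number of genes in each population, with r of 0.54 over 47, 0.40 over 56, 0.61 over 36 and 0.47 over 41 cells in the same order. The part of depth in the number of receptors was not tested. The cells showed many combinations: 34 distinct sets of receptors over the 47 CD11b+CD48+SK cells, 29 over the 56 FL HSC, 19 over the 36 BM HSC and 22 over the 41 WT-MPP. The commonest set in BM HSC was Itga6, Itgb1 and Selplg with no other receptor, in 7 cells (19.4%). In CD11b+CD48+SK cells it was Itga4, Itgb2, Itgal, Selplg and Cd44, in 3 cells, and in FL HSC it was Cxcr4, Itga4, Itgb1, Itgb2, Selplg and Cd44, in 4 cells.

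Within a population the receptors varied largely apart from each other. Pearson's r of log2(TPM+1) between 2 receptors was under 0.3 in size in 34 of 36 pairs for CD11b+CD48+SK cells, 35 for FL HSC, 30 for BM HSC and 34 for WT-MPP. These are descriptions over 47, 56, 36 and 41 cells that share the depth and number of genes of each cell, and in sparse values weak correlations carry little. The lowest r in CD11b+CD48+SK cells was -0.38 between Itgb1 and Itgal and the highest was 0.35 between Itgb2 and Cd44. BM HSC had their highest r between Itga4 and Robo4 (0.45, with 3 cells holding both) and their lowest between Itga6 and Cd44 (-0.35). Cd44 was present in all 9 BM HSC with Itga4 (66.4 to 100) and in 25.9% (11.1 to 46.3) of the BM HSC without it. The r between Cd44 and Itga4 there was 0.27. BM HSC with both had a median of 5026 genes and the other BM HSC 4417, and the part of depth was not tested. The r of 0.67 between Itgb2 and Itgal in WT-MPP rested on 1 cell with both.

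The genes most like each receptor were taken as those with the highest r of log2(TPM+1) over all 180 cells. Such an r rises where 2 genes share a difference between populations, so the r after removing each population's mean is given beside it. Itgal was most like Cst7 (r = 0.70, within populations 0.18), Cd48 (0.62, -0.04) and Gpr97 (0.62, 0.08). Cd48 was itself used to sort the CD11b+CD48+SK cells and to gate the WT-MPP. For Cxcr4 the nearest genes were Mybl2 (0.44, 0.42), Fanca (0.43, 0.40) and Wdr76 (0.42, 0.38), whose r was nearly as high within populations. Removing the means does not remove the number of genes per cell. Its r with Cxcr4 was 0.56 in CD11b+CD48+SK cells and 0.15 to 0.27 in the others, and its part was not tested. Itgb2 was most like Cnn3 (0.41, 0.13), Beta-s (0.39, 0.20) and Hbb-b2 (0.39, 0.23), the last being globin transcripts that were high in FL HSC. Robo4 had Vamp7 (0.40, 0.24), Gpr4 (0.39, 0.32) and Amigo2 (0.36, 0.27) as its nearest genes. For Itga4, Itga6 and Itgb1 the first genes were Arl5a (0.34, 0.30), Gas2l3 (0.34, 0.27) and Txndc15 (0.36, 0.37), respectively. Those for Selplg and Cd44 were Calm3 (0.40, 0.36) and Tkt (0.35, 0.35).

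The chains that can take the place of the 9 receptors' own partners were read from lists of their families. Of 14 other alpha chains 5 passed the filter, and of 6 other beta chains 3 did. Itgb7, which pairs with Itga4 as LPAM-1, a receptor for Madcam1 of gut vessels, was present in 74.5% (59.7 to 86.1) of CD11b+CD48+SK cells against 19.6% of FL HSC, 22.2% of BM HSC and 22% of WT-MPP. Its mean log2(TPM+1) was higher there by 3.27, 3.21 and 2.85. Itga4 and Itgb7 were found together in 38.3% (24.5 to 53.6) of CD11b+CD48+SK cells, 16.1% (7.62 to 28.3) of FL HSC and 8.33% (1.75 to 22.5) of BM HSC, and in 0 of 41 WT-MPP (0 to 8.60). In CD11b+CD48+SK cells Itgb7 was present in 75% of those with Itga4 and in 73.9% of those without it, so its share was about the same in both. Their shares with Itgb1 were 58.3% where Itga4 was present and 78.3% where it was not. In FL HSC with Itga4, Itgb7 was present in 20.9% and Itgb1 in 90.7%. Itga5, a fibronectin receptor chain that pairs with Itgb1, was present in 14.9% of CD11b+CD48+SK cells, 41.1% of FL HSC, 33.3% of BM HSC and 31.7% of WT-MPP. Itga2b, the platelet integrin chain CD41, was present in 36.1% (20.8 to 53.8) of BM HSC and in 9.76% to 16.1% of the others. At least 3 of 7 megakaryocyte markers were present in 14 of 36 BM HSC, 10 of 56 FL HSC, 2 of 41 WT-MPP and 2 of 47 CD11b+CD48+SK cells. The part of these markers in the Itga2b values was not tested. Itga3, Itgav, Itgb3 and Itgb5 also passed the filter, with a share of at most 16.7% in any population.

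Among 13 selectins and makers of selectin ligands past the filter, CD11b+CD48+SK cells had 2 higher than WT-MPP (Selp and Fut7) and 0 lower, 3 higher and 2 lower than BM HSC, and 3 higher and 5 lower than FL HSC. Over all genes past the filter, 19% were higher and 5.01% lower than in WT-MPP, 13.4% and 11.8% than in BM HSC, and 4.02% and 20.9% than in FL HSC. The medians over the list were 0.21, -0.62 and -0.38, beside 0.21, -0.001 and -0.32 over all genes, so only the median against BM HSC lay more than 0.1 from that of all genes. Fut7, the fucosyltransferase that completes selectin ligands on Selplg, was present in 70.2% (55.1 to 82.7) of CD11b+CD48+SK cells, 16.7% (6.37 to 32.8) of BM HSC, 31.7% (18.1 to 48.1) of WT-MPP and 10.7% (4.03 to 21.9) of FL HSC. St3gal6, a sialyltransferase of the same pathway, had its highest share in FL HSC, 66.1%, against 33.3% of BM HSC, 17% of CD11b+CD48+SK cells and 9.76% of WT-MPP.

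**Figure D5:**
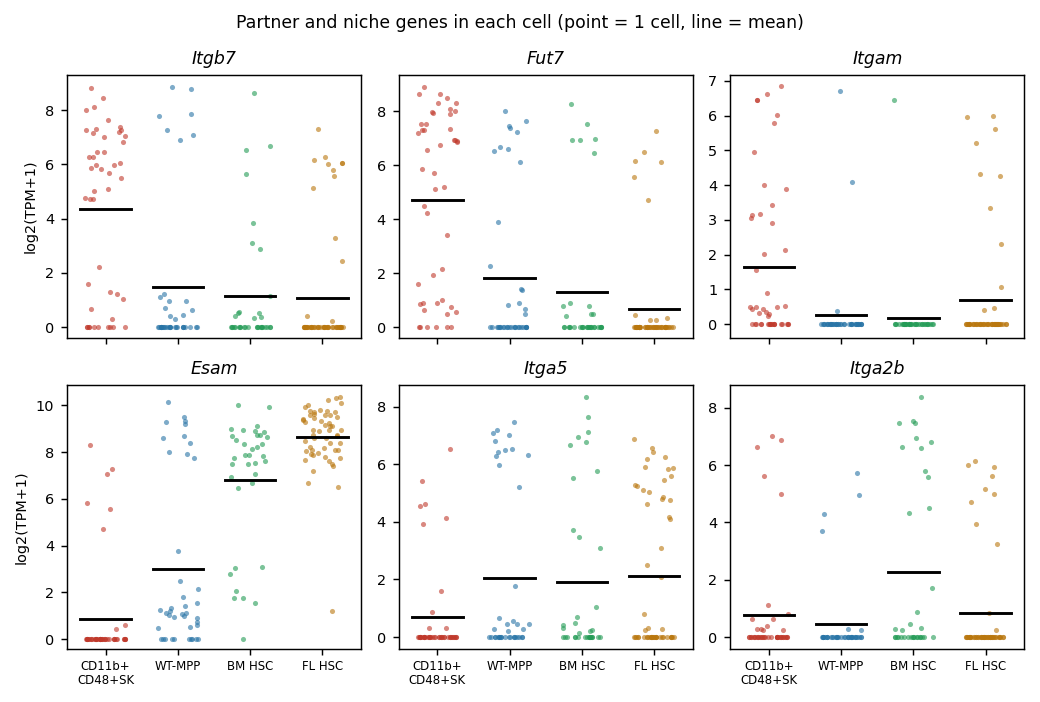
Each point is the level of a partner gene in 1 cell, as log2(TPM+1) on the vertical axis, with the 4 populations along the horizontal axis and a line at each mean. Itgb7 and Fut7 have their highest means in CD11b+CD48+SK cells (4.35 and 4.73), and Esam has its lowest mean there (0.85).

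Other niche and adhesion receptors were counted by differences of 1 or more in mean log2(TPM+1). Of 20 past the filter, CD11b+CD48+SK cells had 1 higher and 10 lower than BM HSC, 1 higher and 10 lower than FL HSC, and 1 higher and 4 lower than WT-MPP, with medians of -1.04, -0.95 and -0.28. The medians of all genes were -0.001, -0.32 and 0.21 in the same order. Of all genes, 13.4% were higher and 11.8% lower than in BM HSC, 4.02% and 20.9% than in FL HSC, and 19% and 5.01% than in WT-MPP, so the balance against FL HSC was toward lower levels over all genes as well. Esam, an endothelial and stem cell adhesion molecule, was present in 12.8% (4.83 to 25.7) of CD11b+CD48+SK cells, 97.2% (85.5 to 99.9) of BM HSC, 61.0% (44.5 to 75.8) of WT-MPP and 100% (93.6 to 100) of FL HSC. From 5 TPM, Esam was found in 6 of 47 CD11b+CD48+SK cells, 31 of 36 BM HSC, 12 of 41 WT-MPP and 55 of 56 FL HSC. Cd63, a tetraspanin that associates with integrins, was present in all cells of the natural populations and in 63.8% (48.5 to 77.3) of CD11b+CD48+SK cells. At 5 TPM or more it was found in all cells of the natural populations and in 18 of 47 CD11b+CD48+SK cells.

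Genes that act below the receptors were counted in the same way, beside 19% of all genes higher and 5.01% lower than in WT-MPP, 13.4% and 11.8% than in BM HSC, and 4.02% and 20.9% than in FL HSC. Of 22 genes past the filter that signal below Cxcr4, CD11b+CD48+SK cells had 6 higher and 3 lower than WT-MPP, 7 higher and 5 lower than BM HSC, and 3 higher and 2 lower than FL HSC, with medians of 0.28, -0.03 and 0.11. Rgs1, which shortens chemokine receptor signals, was present in all WT-MPP, 97.2% of BM HSC and 51.1% of CD11b+CD48+SK cells, and it was listed at 0 in all 56 FL HSC (exact interval 0 to 6.38%). Gnai3, an inhibitory G protein subunit, was present in 63.8% of CD11b+CD48+SK cells and in 83.3% to 92.7% of the others. Of 16 genes of integrin activation and linkage to actin, 5 were higher and 2 lower than in WT-MPP, 5 higher and 4 lower than in BM HSC, and 3 higher and 5 lower than in FL HSC, with medians of 0.63, -0.13 and -0.01. Parvg, an actin linker of blood cells, was present in 100% of CD11b+CD48+SK cells and in 62.5% to 85.4% of the others. Ptk2b, a kinase of the focal adhesion kinase family, was present in 80.6% of BM HSC and in 41.5% to 57.1% of the others. Among 7 chemokine and lipid receptors other than Cxcr4, CD11b+CD48+SK cells had 0 higher and 1 lower than WT-MPP, 1 higher and 2 lower than BM HSC, and 0 higher and 3 lower than FL HSC, with medians of 0.04, -0.23 and 0.16. These lists are short, and nothing is read from their counts, or from those of the 20 receptors above, about the lists as groups. S1pr4, a receptor for sphingosine 1-phosphate, was present in 92.9% of FL HSC and in 72.3% to 75.6% of the other populations. Ptger4, a prostaglandin E2 receptor, was present in 47.2% (30.4 to 64.5) of BM HSC, 24.4% of WT-MPP, 12.8% of CD11b+CD48+SK cells and 8.93% of FL HSC. In the Slit and Robo family only Robo3 and Srgap2 passed the filter besides Robo4, and neither differed by 1 or more between any populations. Of the genes listed with the receptors' ligands 3 passed the filter, among them Fn1 and Dpp4, the second not itself a ligand. Fn1, fibronectin, was present in 14.3% (6.38 to 26.2) of FL HSC and reached a TPM of 1 in no other cell. Dpp4, a peptidase that cleaves Cxcl12, was present in 26.8% of the WT-MPP, 19.4% of BM HSC, 16.1% of FL HSC and 6.38% of CD11b+CD48+SK cells.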

How the data were processed

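Single cells were sorted and sequenced by the study, 1 library per cell. The authors deposited 1 table of TPM over 14825 genes; HISAT2 (2.1.0), StringTie (1.3.4) and mm10 are named in the submitters' processing notes, and the annotation is not given in the sources used here. TPM keeps no read counts, so depth is unknown. Of 181 columns, 1 matched no sample and was not used. Values were transformed to log2(TPM+1), with a pseudocount of 1, and each population's mean was taken over its cells. A gene was present at a TPM of 1 or more. With no animal named, no test was made, and a difference of 1 or more was counted. Scripts were tested on simulated data. Python 3.11.15, numpy 2.4.6, pandas 2.3.3, scipy 1.17.1 and matplotlib 3.10.9 were used, and positions came from GENCODE.

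Receptors and lists were chosen with earlier results of these data known. Named besides the receptors were other integrin chains past the filter and the 2 genes of largest range over populations in each other list. The 3 genes of highest r were named for Itgal, Cxcr4, Itgb2 and Robo4, and the first alone for the other receptors. Some list members are not reported here. Gene names in list counts, the Mac-1 and LPAM-1 pairs, the reading of Itga4 with Cd44 and the genes drawn with the partners were chosen after their values were seen. Alternatives were other pseudocounts, the log2 of the mean, scaling by median ratios, cells of like gene number, leaving out the cells with the fewest genes, other thresholds of presence and, added after seeing the data, leaving out cells with mast or basophil markers.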

Additional observations from a re-analysis of the deposited data

How the results depend on the processing

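The sign of all 21 differences of 1 or more (of 54) held under each of the 7 settings tried, and 7 of them, those of Itgal and Itgb2, stayed at 1 or more under every setting. The number of receptors past 1 depended on the setting. With a pseudocount of 0.1 it was 5 in place of 3 for CD11b+CD48+SK minus WT-MPP, 8 in place of 4 for CD11b+CD48+SK minus BM HSC and 4 in place of 2 for FL HSC minus WT-MPP. With a pseudocount of 10 it was 1 in place of 5 for CD11b+CD48+SK minus FL HSC, 1 in place of 5 for FL HSC minus BM HSC, 1 in place of 2 for FL HSC minus WT-MPP and 0 in place of 2 for WT-MPP minus BM HSC. By the log2 of the mean TPM it was 7 for CD11b+CD48+SK minus WT-MPP (3 higher and 4 lower, against 3 and 0), 4 for FL HSC minus WT-MPP and 5 for WT-MPP minus BM HSC, and this setting moved the median of all genes by -0.53, -0.66 and 0.20. Among cells with 4000 to 5000 genes (24, 17, 17 and 21 cells), it was 4 for FL HSC minus WT-MPP. A larger pseudocount shrinks a log2 difference between low values by construction, and a smaller one widens it. The cause of the shifts under the other settings was not tested. Of 144 shares under other thresholds of presence or in cells of like gene number, 118 stayed within their interval. Without the filter on low values, 12.6% to 27.1% of all genes differed by 1 or more, in either direction, over the 6 pairs. No paired analysis was possible because the numbers in the labels name cells and no animal is given.

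With 1 sample per population, the spread between animals is unknown, and the sort, the transplantation and Hoxb5 cannot be told apart. Depth per cell is unknown, which limits what a value of 0 shows.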
